A study of Mus musculus with 2 samples.

Results

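The genes described here encode inhibitors of mitogen-activated protein kinase (MAPK) signaling, and many of them are known to be induced by MAPK activity itself. They are 6 dual specificity phosphatases (*Dusp1*, *Dusp4*, *Dusp5*, *Dusp6*, *Dusp10* and *Dusp14*), 3 Sprouty genes (*Spry1*, *Spry2* and *Spry4*) and *Spred1*. They were taken by gene symbol, and all 10 had a row among the 19829 genes of the table. Whole-kidney mRNA was sequenced in 2 libraries, 1 per group, and the sources used here do not say whether a library holds a single mouse or a pool. WT+AKI stands for wild-type (WT) control mice, and TG+AKI for transgenic mice (*Inmt* TG) that overexpress *Inmt*, which encodes indolethylamine N-methyltransferase, in proximal tubules. Both were male C57BL/6 mice that received the calcineurin inhibitor voclosporin at 30 mg/kg daily from 8 to 10 weeks of age, and underwent 30 min of bilateral renal ischemia followed by reperfusion (I/R) at 14 weeks of age, which causes acute kidney injury (AKI). The time from reperfusion to collection is uncertain, since the sources used here give both 24 h and 48 h. They mostly give 2 weeks of voclosporin, but in places speak of 6 weeks of it before I/R. Voclosporin is named in the series design whereas the treatment field of both labels names none, and the title of the TG+AKI sample also speaks of a conditional knockout. The sources used here do not name the promoter of the transgene. Neither a sham-operated nor an untreated kidney was analysed here.

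MAPKs are switched on by phosphorylation in cascades that run from growth factor receptors through Ras, Raf and MEK to ERK, and from stress and cytokine receptors to JNK and p38. Dual specificity phosphatases remove the activating phosphates from these kinases, while Sprouty and Spred proteins act upstream, at the level of the receptor, Ras and Raf. Many of their genes are transcribed in response to the same kinases, so their mRNAs are widely read as a trace of recent MAPK activity, and in the kidney the ERK cascade is known for its activation after ischemia.

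Values are normalized read counts per gene, a CPM computed with a scaled library size. The libraries held 38542764 (WT+AKI) and 36427421 (TG+AKI) counted reads, and a value of 10 corresponds to 424.0 reads of the WT+AKI library and to 331.2 of the TG+AKI library. Ratios are TG+AKI over WT+AKI and carry 95% exact (Clopper-Pearson) intervals from the reads, which cover counting error only. They can be too narrow even for that, because reads without molecular identifiers are not independent molecules. With 1 library per group, differences between mice of the same group could not be measured and no p-value of the genotype was computed. *Inmt* itself was listed at 10.4 in WT+AKI against 402.8 in TG+AKI, which follows the labels.

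Transcripts of all 10 genes were less abundant in the TG+AKI kidney than in the WT+AKI kidney, and for each of them the counting interval of the ratio lay below 1. Among all 19829 listed genes, 51.0% were lower by any amount and 31.2% had an interval below 1. Every listed gene had reads in both libraries, so any gene without reads in 1 of them is not in these shares. The size of the difference was very unequal. *Dusp5* and *Dusp10* were 46.0-fold and 7.87-fold lower, *Dusp4*, *Spry2* and *Spry4* were between 2.03-fold and 2.41-fold lower, and the other 5 genes were between 1.27-fold and 1.78-fold lower. On this plain ratio 5 of the 10 genes were at least 2-fold lower, against 12.6% of all listed genes. The counting intervals of the folds of *Spry2* and *Spry4* held 2. The summed value of the 10 genes was 320.2 in WT+AKI against 192.7 in TG+AKI, a ratio of 0.602 [0.584 to 0.620]. In whole-kidney RNA, fewer cells of a type and less of an mRNA per cell cannot be told apart.

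**Figure D1:**
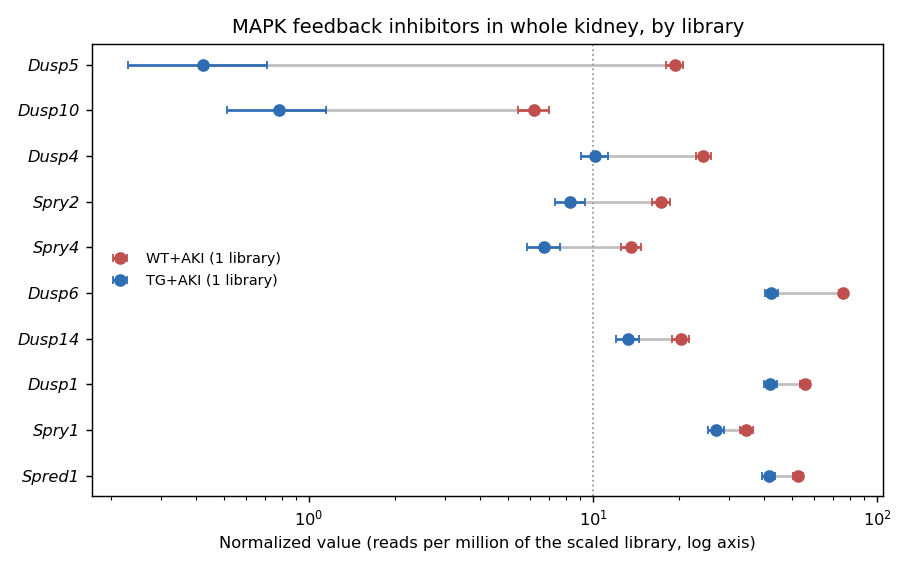
Normalized value of each of the 10 genes (rows, ordered by ratio) in WT+AKI (red) and TG+AKI (blue) on a log axis in CPM of the scaled library, with 95% exact Poisson intervals of the reads and a dotted line at 10. Each blue point lies to the left of its red point, and the widest gap is that of *Dusp5*, from 19.4 to 0.423.

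The nuclear phosphatases that are induced as early response genes are *Dusp1*, *Dusp4* and *Dusp5*. *Dusp5* (gene ID 240672, chr19:53529145-53541809 in GRCm38, the assembly also called mm10), whose product acts on ERK and holds it in the nucleus, was listed at 19.4 in WT+AKI, from 824 reads, and at 0.423 in TG+AKI, from 14 reads. The mRNA was readily counted in the WT+AKI kidney and rare in the TG+AKI kidney. The ratio was 0.0217 [0.0118 to 0.0367], and only 30 of the 19829 listed genes had a lower one. The fold of 46.0 has an interval of 27.2 to 84.5. An annotated antisense transcript covers 22.1% of the exon bases of *Dusp5*. The libraries were made with a stranded kit (TruSeq Stranded mRNA), but the sources used here do not state whether strand was used in counting.

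*Dusp4* (gene ID 319520, chr8:34807610-34819894), which acts on ERK, JNK and p38 in the nucleus, was listed at 24.4 in WT+AKI against 10.1 in TG+AKI. Its level in TG+AKI was lower by a ratio of 0.414 [0.365 to 0.469]. *Dusp1* (gene ID 19252, chr17:26505591-26508472), the founding member of the family and a regulator of p38 and JNK in inflammation, was listed at 55.8 and 42.0. Its ratio of 0.752 [0.704 to 0.804] was the mildest of the 3 nuclear enzymes. The intervals of the 3 genes did not overlap, and since every rescaling of a library multiplies all ratios by the same factor, this order does not depend on the scaling.

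The sequences before the transcription start are shown for *Dusp5* and *Dusp10*, the genes with the largest differences, and for *Dusp1*, the nuclear phosphatase with the smallest. *Dusp1* was added after its values were seen. Each run gives the 250 bases upstream of the annotated start, 5′ to 3′ on the strand of the gene, at chr19:53528895-53529144 (plus strand), chr1:184034131-184034380 (plus strand) and chr17:26508473-26508722 (minus strand), from RefSeq on GRCm38.p6. Capitals mark matches to the motifs searched on both strands.
Dusp5: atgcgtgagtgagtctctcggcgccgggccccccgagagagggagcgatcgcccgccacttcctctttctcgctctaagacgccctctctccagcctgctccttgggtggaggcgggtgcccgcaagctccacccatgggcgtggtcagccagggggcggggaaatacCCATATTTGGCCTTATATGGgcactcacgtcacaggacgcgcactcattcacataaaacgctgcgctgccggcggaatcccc
Dusp10: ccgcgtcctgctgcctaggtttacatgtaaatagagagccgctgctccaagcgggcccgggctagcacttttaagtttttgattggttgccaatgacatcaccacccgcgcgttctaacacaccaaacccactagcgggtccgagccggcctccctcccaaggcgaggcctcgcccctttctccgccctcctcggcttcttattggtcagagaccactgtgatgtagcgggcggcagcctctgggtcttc
Dusp1: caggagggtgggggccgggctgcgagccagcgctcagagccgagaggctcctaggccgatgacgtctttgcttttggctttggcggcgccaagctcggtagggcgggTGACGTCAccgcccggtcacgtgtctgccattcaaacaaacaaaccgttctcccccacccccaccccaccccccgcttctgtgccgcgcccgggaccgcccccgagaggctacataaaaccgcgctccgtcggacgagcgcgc

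The window of *Dusp5* held a pair of CArG boxes, the sites that serum response factor is known to bind, in which CC and GG flank a run of A and T. They lay next to each other, at positions -82 to -73 and -72 to -63 from the start (chr19:53529063-53529072 and chr19:53529073-53529082). Of the 32851 promoter windows of the same length, 1.47% held a CArG box. The window of *Dusp1* held a cAMP response element (CRE, TGACGTCA) at positions -143 to -136, a motif present in 1.55% of windows. RefSeq windows were matched for 8 of the 10 genes, those of *Dusp4* and *Spry4* not among them. In the other 6 of these windows, *Dusp10* included, none of the 4 motifs was found. The other motifs searched were the AP-1 site (TGANTCA, in 6.75% of windows) and an ETS core (CCGGAAG, in 6.91%). A match is a description of letters and says nothing of binding in these kidneys.

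*Dusp6* (gene ID 67603, chr10:99263231-99267489) encodes the cytoplasmic phosphatase that is specific for ERK. It was listed at 75.7 in WT+AKI, from 3211 reads, and at 42.5 in TG+AKI, from 1406 reads. This was the highest value of the 10 genes in both libraries, without correction for gene length. In TG+AKI *Dusp1* (42.0, from 1391 reads) and *Spred1* (41.5, from 1374 reads) were close to it. The ratio of *Dusp6* was 0.561 [0.526 to 0.597]. *Dusp10* (gene ID 63953, chr1:184034381-184075636), whose product prefers JNK and p38 over ERK, was listed at 6.18 in WT+AKI, from 262 reads, and at 0.785 in TG+AKI, from 26 reads. Its ratio of 0.127 [0.0815 to 0.190] lay above that of *Dusp5* and below those of the other 8 genes, without overlap of the intervals. *Dusp14* (gene ID 56405, chr11:84048033-84069256), a small atypical family member without the N-terminal domain that docks MAPKs, had values of 20.4 and 13.2, and its ratio was 0.650 [0.578 to 0.730].

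The Sprouty genes encode membrane-associated proteins that dampen Ras and Raf activation below receptor tyrosine kinases. *Spry1* (gene ID 24063, chr3:37639947-37644599), known for restraining RET signaling during kidney development, was listed at 34.6 in WT+AKI against 27.2 in TG+AKI. This was among the mildest differences, with a ratio of 0.785 [0.722 to 0.853]. *Spry2* (gene ID 24064, chr14:105891947-105896819), whose product also binds the ubiquitin ligase CBL, was listed at 17.3 and 8.30, and *Spry4* (gene ID 24066) at 13.6 and 6.70. Their ratios of 0.480 [0.416 to 0.552] and 0.493 [0.421 to 0.577] overlapped each other and not that of *Spry1*. For *Spry1*, an annotated transcript on the opposite strand covers 24.4% of the exon bases.

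*Spred1* (gene ID 114715, chr2:117121071-117182279), whose product brings the Ras inhibitor neurofibromin to the membrane, was listed at 52.7 in WT+AKI against 41.5 in TG+AKI. Its ratio of 0.787 [0.736 to 0.843] was close to those of *Spry1* and *Dusp1*, with overlapping intervals. No 100-base stretch of the longest annotated transcript of any of the 10 genes occurred in a transcript of another gene.

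**Figure D2:**
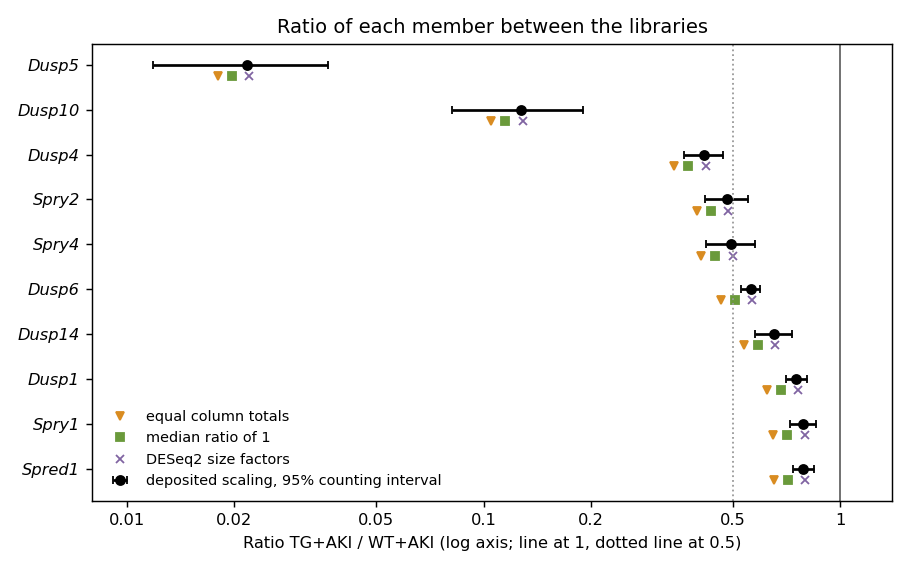
Ratio TG+AKI over WT+AKI of each of the 10 genes (rows) on a log axis, with lines at 1 and 0.5. Black points with bars are the deposited scaling with 95% counting intervals, and the coloured marks show 3 other scalings of the libraries. Every mark lies left of 1, and *Dusp5* (0.0217) and *Dusp10* (0.127) stand apart from the other 8 genes (0.414 to 0.787).

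Calls across the table were counted on log2(value + 1), where differences of low genes come out too small, for genes that reached 10 in either library. Of the 10294 genes compared, 7.12% were at least 2-fold lower and 5.74% at least 2-fold higher in TG+AKI. Of the 10 genes, 9 could be compared, since *Dusp10* did not reach 10, and *Dusp5*, *Spry2* and *Spry4* reached it in WT+AKI only. *Dusp5* (log2 fold change -3.84) and *Dusp4* (-1.19) were at least 2-fold lower on this scale, and none was at least 2-fold higher. *Spry2* (-0.98), *Spry4* (-0.92) and *Dusp6* (-0.82) fell short of 2-fold. The median of the 9 log2 fold changes was -0.82, and that of all compared genes was 0.014.

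How many genes of the whole table were lower depended on the scaling. Over the whole table the median shifted by -0.28 when column totals were made equal and by -0.14 when well-expressed genes were given a median ratio of 1, whereas DESeq2 size factors moved it by 0.016. At least 2-fold, 733 genes were lower and 591 higher with the deposited scaling, 1143 and 361 with equal totals, and 915 and 458 with the median ratio of 1. Since a rescaling multiplies all ratios by 1 factor, values taken relative to the median of all compared genes are nearly the same under the 4 scalings by construction. The log2 fold change relative to that median ranged from -3.86 to -3.76 for *Dusp5*, from -1.21 to -1.19 for *Dusp4* and from -0.35 to -0.34 for *Spry1*. With equal column totals 5 of the 9 compared genes were at least 2-fold lower, *Dusp6*, *Spry2* and *Spry4* joining *Dusp4* and *Dusp5*, where 11.0% of all genes were.

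Levels of different genes were compared within a library as the normalized value per kb of merged exons. In WT+AKI the highest was *Dusp6* at 24.2 per kb [23.35 to 25.03], followed by *Dusp1* at 16.9 [16.2 to 17.6] and *Spry1* at 11.9 [11.3 to 12.5]. *Dusp14* came next at 10.5 per kb. *Dusp4* (8.91 per kb), *Spry2* (8.30), *Dusp5* (7.86) and *Spred1* (7.77) followed closely, and the intervals of neighbours in this order overlapped. *Spry4* and *Dusp10* were lowest at 2.86 and 2.03 per kb. The median of the 17631 listed genes with a length was 3.37 per kb, so 8 of the 10 genes lay above it in WT+AKI.

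In TG+AKI the highest levels per kb were again those of *Dusp6* (13.6 [12.9 to 14.3]) and *Dusp1* (12.7 [12.0 to 13.4]), and these intervals overlapped. *Dusp5*, on rank 7 of the 10 genes in WT+AKI, was the last in TG+AKI at 0.171 per kb [0.0935 to 0.287], beside *Dusp10* at 0.258 [0.169 to 0.378], from which it did not differ beyond counting error. *Spred1* had 6.12 per kb and rank 5 in TG+AKI and rank 8 in WT+AKI, where its interval overlapped those of *Dusp5* and *Spry2*. With the longest transcript in place of merged exons, *Dusp1* (18.2 per kb) stood above *Dusp6* (15.2) in TG+AKI, the merged exons of *Dusp1* being 3.31 kb long and its longest transcript 2.31 kb. In WT+AKI this length put *Dusp14* (13.0 per kb) above *Spry1* (12.5), *Spred1* on rank 6 and *Dusp5* on rank 8.

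**Figure D3:**
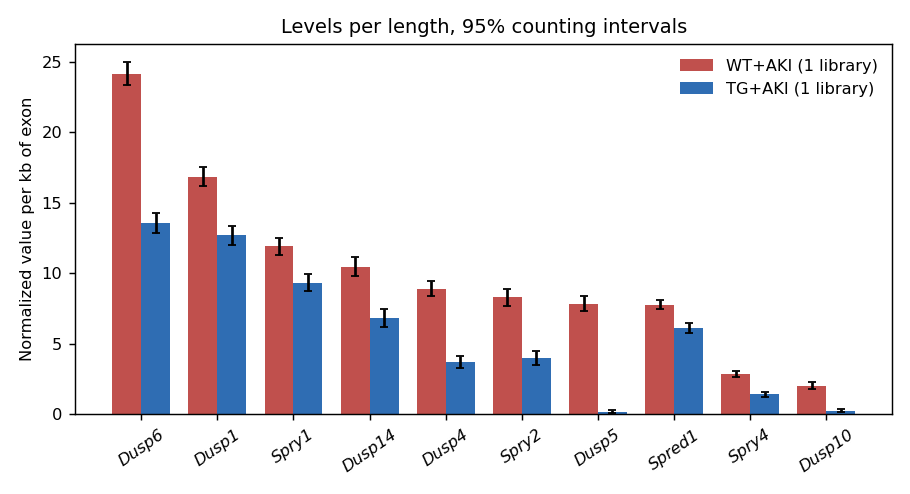
Normalized value per kb of merged exons for the 10 genes in WT+AKI (red bars) and TG+AKI (blue bars), with 95% exact Poisson intervals of the reads. The genes are ordered by their level in WT+AKI, from *Dusp6* (24.2) to *Dusp10* (2.03), and the blue bar of *Dusp5* (0.171) is the shortest.

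The make-up of the 10 genes' reads differed between the libraries, a comparison that the scaling cannot touch. *Dusp5* took 6.07% [5.67 to 6.49] of their 13574 reads in WT+AKI against 0.219% [0.120 to 0.368] of their 6381 reads in TG+AKI. *Dusp4* took 7.63% [7.18 to 8.08] and 5.25% [4.72 to 5.83]. In the other direction, *Dusp1* took 17.4% [16.8 to 18.1] and 21.8% [20.8 to 22.8], and *Spred1* 16.5% [15.8 to 17.1] and 21.5% [20.5 to 22.6]. The 6 phosphatases together held 63.1% [62.3 to 63.9] in WT+AKI against 56.6% [55.4 to 57.8] in TG+AKI. Without *Dusp5* and *Dusp10*, the summed ratio of the remaining 8 genes was 0.650 [0.631 to 0.670] with the deposited scaling. Unlike the shares of reads, this ratio changes with the scaling. These intervals are exact binomial intervals.

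The other genes of the pathway were examined as lists. A gene that reached 10 in a single library had to differ, so counts and medians over the compared genes of a list are descriptions. Of the 15 other dual specificity phosphatases, 10 could be compared, and their median log2 fold change was -0.38, which became -0.76 when totals were equal and -0.51 when the median ratio was 1. *Dusp8*, which acts on JNK and p38, was at least 2-fold lower (19.5 and 3.23, log2 fold change -2.28), and *Dusp15* (4.34 and 12.6, 1.35) and *Dusp28* (5.73 and 12.8, 1.04) were at least 2-fold higher. Under each of these 2 other scalings *Dusp28* was no longer past 2-fold and *Dusp7*, named after its values were seen (28.5 and 14.5, -0.93), was, which made 2 genes lower and 1 higher. Of 15 genes listed as other inhibitors of the ERK cascade, such as Ras GTPase activating proteins, *Spred3* was at least 2-fold lower (19.6 and 2.60, -2.52). None was at least 2-fold higher, and the median was -0.14. By any amount, 10 were lower and 5 higher with the deposited scaling. Among the 5 was *Errfi1*, named after its values were seen (508.3 and 635.1, ratio 1.25 [1.23 to 1.27]). With equal totals or a median ratio of 1, 2 were at least 2-fold lower, with *Peak1* as the second (64.2 and 34.8, -0.87). The medians were then -0.397 and -0.275, and by any amount 14 were lower and 1 higher under each. *Peak1* was part of the list, and so of its counts and medians, but is not an established inhibitor of the cascade. *Spry3* was not analysed here.

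Of 20 compared genes that encode adaptors, Ras, Raf, MEK and ERK, 1 was at least 2-fold lower and none higher, with a median of 0.042 that turned negative under other scalings (-0.23 when totals were equal, -0.10 when the median ratio was 1). That gene was *Nras* (65.9 and 32.3, log2 fold change -1.01), which encodes a Ras GTPase and was no longer past 2-fold with DESeq2 size factors. Of 17 compared genes of the JNK and p38 cascades, 6 were at least 2-fold lower under each of the 4 scalings and none at least 2-fold higher. Between 7.0% and 11.0% of all compared genes were at least 2-fold lower under these scalings. The median was -0.13, or -0.405 and -0.276 when totals were equal and when the median ratio was 1. By any amount, 11 were lower and 6 higher with the deposited scaling. The largest falls were those of the kinases *Map3k6* (36.2 and 7.49, -2.13), *Mapk13* (25.5 and 7.22, -1.69), which encodes p38 delta, and *Map3k1* (87.0 and 35.3, -1.28).

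Of 8 compared ligands of receptor tyrosine kinases, 5 were at least 2-fold lower and 1 higher, with a median of -1.24. Those with the largest falls were *Hgf* (14.3 and 3.44, log2 fold change -1.78), *Hbegf* (52.9 and 15.2, -1.74) and *Nrg1* (78.6 and 25.8, -1.57), and *Egf* was higher (54.3 and 1160, 4.39). *Areg*, *Ereg* and *Epgn* were not analysed here. Of 13 compared receptors, *Fgfr4* was at least 2-fold higher (18.02 and 37.7, 1.02) with the deposited scaling and with DESeq2 size factors only, and under the other 2 scalings *Pdgfrb* was at least 2-fold lower instead (114.2 and 61.3, -0.89). The median of the receptors was 0.12, and -0.15 and -0.02 with equal totals and a median ratio of 1.

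Genes other than the 10 that are known to be transcribed after ERK activation were lower as well. Of 14 compared, 13 were lower by any amount and 10 at least 2-fold lower, with a median of -2.18, where 48.8% and 7.12% of all compared genes were. Apart from *Egr1* and *Junb*, named after their values were seen, the genes past 2-fold reached a value of 10 in the WT+AKI library alone, so these counts and this median support nothing on their own. *Fosl1*, an AP-1 subunit, was listed at 41.2 from 1745 reads in WT+AKI against at 0.0302 from 1 read in TG+AKI, a ratio of 0.000734 [1.86e-05 to 0.00409]. *Plaur*, the urokinase receptor, was listed at 62.5 and 2.54 (log2 fold change -4.17), and the stress transcription factor *Atf3* at 27.2 and 1.81 (-3.33). *Etv5* (18.2 and 17.5) and *Ier3* (34.4 and 35.4), which are named after their values were seen, differed least. For both the counting interval of the ratio held 1 with the deposited scaling. With equal totals all 15 genes then compared were lower (median -2.62), and with a median ratio of 1 all 14 were (median -2.31).

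**Figure D4:**
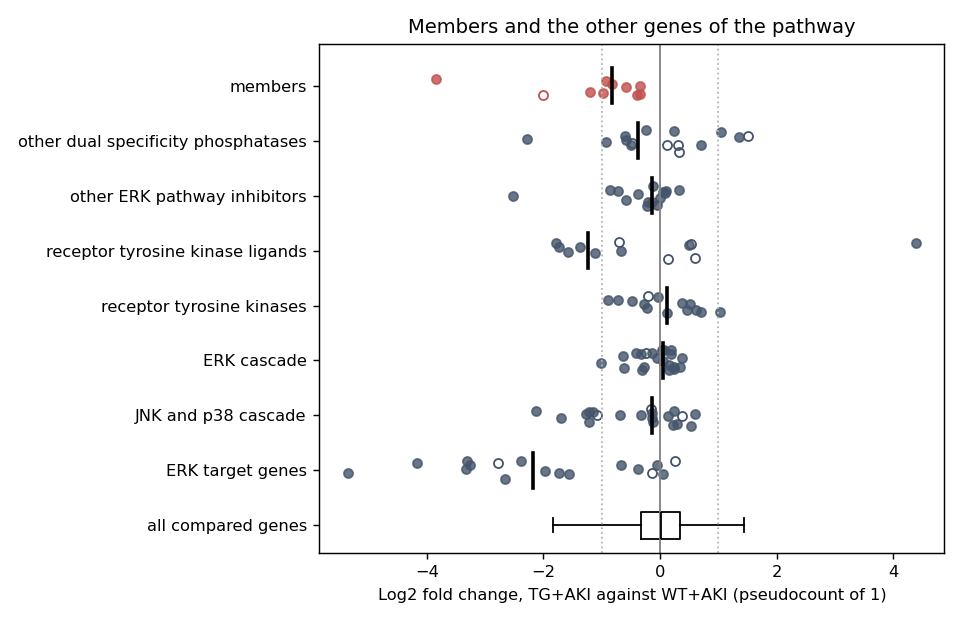
Log2 fold change of single genes on the log2(value + 1) scale, TG+AKI against WT+AKI, for the 10 genes (red) and for 7 lists of other genes of the pathway (blue-grey). Open circles did not reach a value of 10 and black bars are medians of the filled ones. The box shows all 10294 compared genes, with quartiles at -0.32 and 0.34 and whiskers around the central 95% (-1.84 to 1.43). The ERK target genes (median -2.18) lie furthest to the left and the ERK cascade (median 0.042) lies around 0.

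Markers of cell types and of injury differed between the kidneys too. All 6 tubular injury markers were at least 2-fold lower in TG+AKI, with a summed value of 2466 in WT+AKI against 49.1 in TG+AKI. *Havcr1* led them on the log2(value + 1) scale (-8.27), whereas on the plain ratio *Krt20* was lower (0.000908 [0.000469 to 0.00159] against 0.00238 [0.00192 to 0.00292]). *Havcr1*, *Krt20*, *Lcn2* and *Sox9* reached a value of 10 in WT+AKI only, so the count of injury markers is a description. *Lcn2* and *Sox9* are named for this limit only. Of all compared genes, 7.12% were at least 2-fold lower and 5.74% at least 2-fold higher. All 10 proximal tubule markers were at least 2-fold higher, led by *Slc7a13*, with sums of 3274 and 14220. Of 7 macrophage markers, 5 were at least 2-fold lower, led by *Cd68*, with sums of 173.4 and 74.8. These 5 reached a value of 10 in WT+AKI only, so their count is a description. *Csf1r*, named after its values were seen, was higher in TG+AKI with the deposited scaling (37.5 and 43.0, ratio 1.15 [1.07 to 1.23]). Of 6 fibroblast and mural markers 3 were at least 2-fold lower, led by *Col1a1*, with sums of 529.5 and 247.0. *Ly6g*, *Retnlg* and *Cxcr2* were not analysed here, and of 3 other neutrophil markers none reached a value of 10, and their sum was 7.38 and 1.42. The 7 lymphocyte markers summed to 15.4 and 9.87, which turned on the pan-leukocyte gene *Ptprc* (13.7 and 7.28). The T, B and NK cell markers among them were at most 0.590 in either library, and 5 of these 6 were higher in TG+AKI with the deposited scaling. The counting interval of the ratio was then above 1 for *Nkg7* (5 and 15 reads). For *Ms4a1* (10 and 18 reads) it was so only narrowly, starting at 1.009. Thick ascending limb markers summed to 1966 and 3286, with 3 of 4 compared genes at least 2-fold higher, and collecting duct markers to 399.2 and 521.7, with 1 of 6. None of 5 podocyte markers (422.9 and 453.8) and none of 6 endothelial markers (418.0 and 401.6) differed 2-fold. Every row of the table holds a value above 0 in both libraries, so no marker with a row could be at 0. The part of these differences in the values of the 10 genes was not tested.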

How the data were processed

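Whole-kidney mRNA libraries, 1 WT+AKI and 1 TG+AKI, were grouped by the library names in the labels. The authors deposited 1 normalized signal value for every gene and library (19829 genes), obtained from reads aligned with STAR 2.7.3a, counted with HTSeq and scaled by 1 factor per library. The submitters' processing notes name mm10, Cufflinks 2.2.1, FastQC, DESeq2 and edgeR. The gene annotation and the use of strand in counting were not given in the sources used here. All values (100% in both libraries, tolerance 0.01 reads) were whole multiples of the smallest value of their column, so that reads were recovered, 38542764 in WT+AKI and 36427421 in TG+AKI, with 1 read worth 0.0236 and 0.0302. TMM factors from edgeR on these reads were 1.10 and 0.909, which is the deposited scaling, and DESeq2 size factors were 1.14 and 0.879.

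Fold changes used a pseudocount of 1, a filter of 10 in either library and a 2-fold rule. An exact binomial test on the reads, with Benjamini-Hochberg adjustment, gave an adjusted p-value under 0.05 for 8291 of 10294 compared genes and for all 9 compared members. It compares these 2 libraries and not the genotypes, so no p-value is printed. The procedures were tested on simulated reads with counting error only, so that test says nothing of differences between mice. Exon lengths came from GENCODE M21 and gene coordinates from RefSeq, both on GRCm38.

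The members, the lists of other genes and the tests were chosen with earlier results of these data known. Named genes are the 10 members, *Inmt*, up to 3 genes per direction with the largest changes of at least 2-fold in each pathway list, and the leading gene of a cell type list that changed. Alternatives were pseudocounts of 0.1 and 10, 3 other scalings, no filter, a filter of 50 and longest transcripts. The 2-fold rule on the plain ratio (with filters of 10 and of 1) and the addition of the binomial test were chosen after seeing the data. Analyses used Python 3.11.15, numpy 2.4.6, scipy 1.17.1, pandas 2.3.3, matplotlib 3.10.9, R 4.3.3, edgeR 4.0.16 and DESeq2 1.42.0.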

Additional observations from a re-analysis of the deposited data

How the results depend on the processing

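Of 50 values of single genes under 5 alternatives, 21 moved by more than counting error. None of these alternatives was able to turn a direction, since a pseudocount cannot and the scalings shift all genes down or by 0.016 only. The number of genes at least 2-fold lower, 2 of 9 as reported, was 4 with a pseudocount of 0.1, with a median ratio of 1 or on the plain ratio, 5 with equal column totals or on the plain ratio with a filter of 1, 3 of 10 with no filter, and 1 (*Dusp5*) with a pseudocount of 10. Of all compared genes, 7.12% were at least 2-fold lower as reported, and 7.62% with a pseudocount of 0.1. The share was 8.87% with a median ratio of 1, 7.67% on the plain ratio and 11.0% with equal column totals. It was 11.0% on the plain ratio with a filter of 1, 5.8% with no filter and 3.96% with a pseudocount of 10. A filter of 50 gave a share of 6.75%. A filter of 50 left *Dusp1*, *Dusp6* and *Spred1*, of which 3 were lower and 0 at least 2-fold lower. The median log2 fold change, -0.82 as reported, was -0.50 with a pseudocount of 10, -1.09 with equal column totals and -0.40 with a filter of 50. The median was otherwise between -0.96 and -0.80. DESeq2 size factors left 2 genes at least 2-fold lower, and adding the binomial test could change no call, since all 9 compared genes pass it. At least 2-fold higher were 0 genes under every alternative. Over the whole table, 733 of 10294 genes were at least 2-fold lower and 591 higher as reported, and 408 and 372 with a pseudocount of 10. The counts were 1143 and 361 of 10377 genes with equal column totals, and 1150 and 784 of 19829 with no filter. They were 295 and 374 of 4369 with a filter of 50, and 1645 and 1103 of 14997 on the plain ratio with a filter of 1. With a single library per group no replicate could be left out, and depth limits *Dusp5* (14 reads in TG+AKI) and *Dusp10* (26 reads) most.

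No paired analysis was possible because each group has 1 library.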
